A study of Oryza sativa with 18 samples.

Results

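The genes described here encode enzymes of the main route of auxin synthesis in rice. They are 2 loci of the tryptophan aminotransferase family (TAR) and the 8 loci OsYUC1 to OsYUC8 of the YUCCA family. They were chosen by identifier, and these 10 loci were all present among the 56508 loci of the count table, on 12 of its 66860 transcript rows. Messenger RNA was sequenced from roots of Oryza sativa cv. Nipponbare, a japonica cultivar. The synthetic auxin 2,4-D was given to whole plants, 7 days old, as a soak of 1 h at 50 µM, and mock plants were handled alike without it. Roots were harvested 1, 7 or 14 days later (dpt, days after the soak). Each of the 6 groups had 3 libraries, called biological replicates in the labels, for a total of 18. At 7 and 14 dpt the treated group held only roots with nodule-like structures (NLS), while the 2,4-D roots of 1 dpt and the mock roots were not selected in this way. Treatment and the presence of NLS therefore cannot be told apart at 7 and 14 dpt, and the libraries of 1 dpt belonged to another sequencing batch than those of the later times.

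Indole-3-acetic acid (IAA), the main natural auxin, is made from tryptophan in a short route. Tryptophan aminotransferases convert tryptophan into indole-3-pyruvic acid, and YUCCA enzymes, which are flavin-containing monooxygenases, convert indole-3-pyruvic acid into IAA. In roots, local synthesis by this route is known to act beside auxin transport in meristem maintenance and in lateral and crown root formation. 2,4-D is not a product of this route.

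Library totals ran from 9416952 to 18057748 counts, with a median of 13489839. Levels are given as CPM, the usual depth-scaled count, on library sizes adjusted by trimmed mean of M-values (TMM), and 1 CPM in 2 or more libraries was required for testing, which 23289 loci met. Between-library correlations of log2 CPM were 0.912 to 0.985 within groups and 0.843 to 0.931 between treatments of the same time. The summed level of 2 root marker loci, aquaporin NIP2-1 (LOC_Os02g51110) and a lipid-transfer protein (LOC_Os02g44310), was lower in the 2,4-D libraries at every time and did not overlap the mock libraries. It was 1287 to 1519 against 2355 to 3334 CPM at 1 dpt, 291 to 689 against 1890 to 2678 CPM at 7 dpt, and 322 to 769 against 1223 to 2858 CPM at 14 dpt. By itself NIP2-1 overlapped at 1 dpt, with 326 to 1156 CPM with 2,4-D against 824 to 1742 CPM in mock. The separation of the sum at 1 dpt thus rested on the lipid-transfer locus. The paper names the NIP2-1 locus among its genes that differed at 7 dpt, so its fall at that time is no independent gauge of root composition. In such bulk samples fewer cells of a type and less RNA per cell cannot be told apart, and the part of root composition in the results below was not tested.

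The auxin synthesis genes did not move as 1 block. OsYUC7 was lower with 2,4-D at 1 dpt and higher at 7 and 14 dpt, the TAR locus LOC_Os01g07500 was lower at all 3 times, and OsYUC4 was lower at 7 and 14 dpt. Of the 10 loci, 5 passed the filter on low values (LOC_Os01g07500, OsYUC3, OsYUC4, OsYUC6 and OsYUC7). Calls required an adjusted p (Benjamini-Hochberg) under 0.05 in edgeR's quasi-likelihood test and a log2 fold change of 1 or more in either direction. At 1 dpt, 0 of the 5 loci were called higher and 2 lower, where 4.07% and 7.21% of all tested loci were. At 7 dpt, 1 was called higher and 2 lower, where the shares over all tested loci were 6.27% and 8.07%. At 14 dpt, 1 was again called higher and 2 lower, against 5.55% and 8.54% of all tested loci. The median log2 fold change of the 5 loci was -0.83, -0.36 and -1.06 at the 3 times, and that of all tested loci was -0.01, 0.03 and 0.00.

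**Figure D1:**
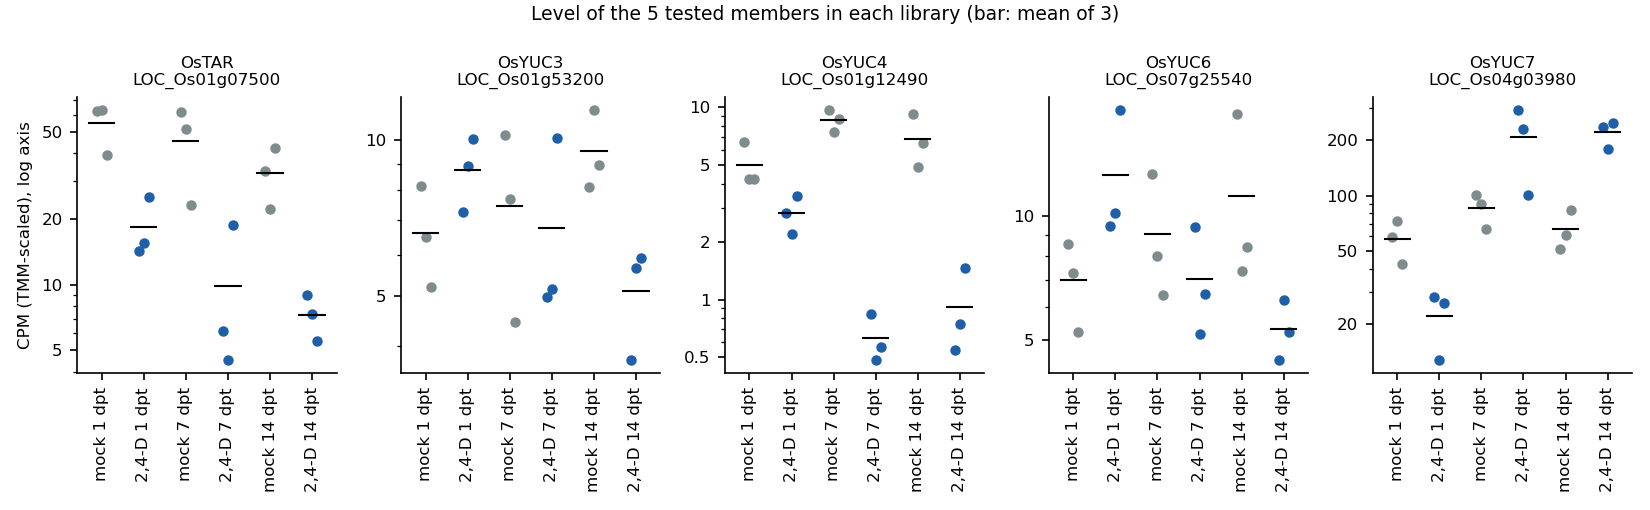
CPM on a log axis of the 5 tested auxin synthesis loci in each of the 18 libraries, by treatment and time (grey, mock; blue, 2,4-D), with a bar at the mean of the 3 libraries. OsYUC7 lies below mock at 1 dpt and above it at 14 dpt, while LOC_Os01g07500 lies below mock at every time.

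Of the 2 TAR loci, only LOC_Os01g07500 passed the filter on low values. Any other aminotransferase loci of this first step were not counted. LOC_Os01g07500, on chromosome 1, is annotated in the study's supplement as tryptophan aminotransferase related 2 and belongs to the aminotransferases that form indole-3-pyruvic acid. The gene lists there hold genes that differed at 7 dpt, so the fall of this locus at that time is no independent result. At 1 dpt it stood at 62.9, 63.4 and 39.5 CPM in the mock libraries and at 14.3, 15.6 and 25.2 CPM in the 2,4-D libraries. At 7 dpt it was 62.0, 51.8 and 23.3 CPM in mock and 6.13, 4.52 and 18.9 CPM with 2,4-D. At 14 dpt the mock libraries had 33.4, 22.3 and 42.4 CPM and the 2,4-D libraries 9.00, 7.32 and 5.54 CPM. Every 2,4-D library was below every mock library of its time, and the narrowest gap was at 7 dpt, between replicate 3 of 2,4-D and replicate 3 of mock. For 3 libraries against 3, such a separation cannot go below p = 0.1 by exact permutation. Neither here nor below was the share of all tested loci that separated counted.

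The aminotransferase transcript was 3.01 times lower with 2,4-D at 1 dpt (log2 fold change -1.59, SE 0.487, adjusted p = 0.04338). The decrease was 4.63 times at 7 dpt (log2 -2.21, SE 0.498, adjusted p = 0.007842) and 4.48 times at 14 dpt (log2 -2.16, SE 0.50, adjusted p = 0.008232). The call at 1 dpt rested on single libraries and on the filter. It was lost without mock replicate 1 (adjusted p = 0.117) or 2 (adjusted p = 0.138), without 2,4-D replicate 1 (adjusted p = 0.150) or 2 (adjusted p = 0.163), with no filter on low counts (adjusted p = 0.0843) and with library sizes alone (adjusted p = 0.0576). The call at 7 dpt was lost in a fit of the 6 libraries of that time alone (adjusted p = 0.0701), and the calls at 7 and 14 dpt held when any single library was left out. A fit with a term for the replicate number ended the call at each time.

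OsYUC7 (LOC_Os04g03980, chromosome 4) had the most counts of the 8 YUCCA loci, 27654 over the 18 libraries, and its name in the study's supplement is YUCCA 3. At 1 dpt the mock libraries had 59.3, 72.8 and 42.3 CPM and the 2,4-D libraries 28.0, 12.7 and 25.9 CPM. At 7 dpt the mock libraries had 101, 89.5 and 65.5 CPM and the 2,4-D libraries 293, 229 and 101 CPM. At 14 dpt mock stood at 51.3, 61.2 and 83.9 CPM and 2,4-D at 237, 179 and 249 CPM. The groups did not overlap at 1 and 14 dpt, with 2,4-D below mock at 1 dpt and above it at 14 dpt. At 7 dpt replicate 3 of 2,4-D lay level with the highest mock library, 101 CPM in each, and the other 2,4-D libraries were clearly above.

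The OsYUC7 transcript was 2.62 times lower with 2,4-D at 1 dpt (log2 -1.39, SE 0.373, adjusted p = 0.02444). It was 2.43 times higher at 7 dpt (log2 1.28, SE 0.369, adjusted p = 0.02612) and 3.38 times higher at 14 dpt (log2 1.76, SE 0.374, adjusted p = 0.005298). The increase at 14 dpt was called in all 17 alternative settings, with log2 values from 1.61 to 1.96. The decrease at 1 dpt lost its call without mock replicate 1 (adjusted p = 0.0651), mock replicate 2 (adjusted p = 0.106) or 2,4-D replicate 2 (adjusted p = 0.110). The increase at 7 dpt lost it in 4 leave-one-out fits, without mock replicate 2 (adjusted p = 0.0629), mock replicate 3 (adjusted p = 0.0861), 2,4-D replicate 1 (adjusted p = 0.128) or 2,4-D replicate 2 (adjusted p = 0.0782), and with the 6 libraries of 7 dpt alone (adjusted p = 0.0867). A fit with a term for the replicate number ended the calls at 1 and 7 dpt as well.

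The order of the group means of OsYUC7 was 2,4-D at 14 dpt (221 ± 37.6 CPM, SD, n = 3), 2,4-D at 7 dpt (208 ± 97.7 CPM), mock at 7 dpt (85.3 ± 18.1 CPM), mock at 14 dpt (65.5 ± 16.7 CPM), mock at 1 dpt (58.2 ± 15.3 CPM) and 2,4-D at 1 dpt (22.2 ± 8.30 CPM). The first 2 groups of this order, and the 3 mock groups, overlapped in their libraries.

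OsYUC4 (LOC_Os01g12490, chromosome 1) had the largest fold change among the 5 loci. At 1 dpt it stood at 6.62, 4.24 and 4.23 CPM in mock and 2.84, 2.19 and 3.46 CPM with 2,4-D. At 7 dpt it was 9.71, 7.45 and 8.73 CPM in mock and 0.842, 0.484 and 0.566 CPM with 2,4-D, the latter from 11, 6 and 9 counts. At 14 dpt the mock libraries had 9.24, 4.91 and 6.49 CPM and the 2,4-D libraries 0.548, 0.748 and 1.46 CPM, from 7, 14 and 19 counts. The groups did not overlap at any time, with the same limit for groups of this size, and the gap was widest at 7 dpt.

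The OsYUC4 transcript was 13.5 times lower with 2,4-D at 7 dpt (log2 -3.76, SE 0.393, adjusted p = 0.0001218) and 7.46 times lower at 14 dpt (log2 -2.90, SE 0.375, adjusted p = 0.000365). At 1 dpt the difference was not called (log2 -0.83, 95% interval -1.57 to -0.09, adjusted p = 0.1287). Both calls held in every alternative that tested the locus, 17 at 7 dpt and 16 at 14 dpt. No library reached 10 CPM, so that a filter at this level left the locus untested.

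**Figure D2:**
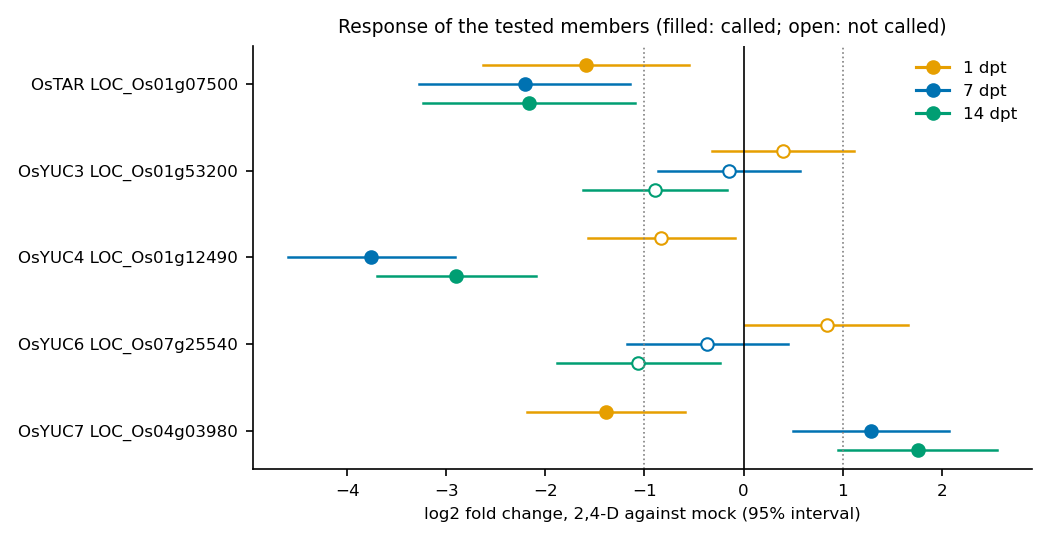
Log2 fold change of 2,4-D against mock for the 5 tested loci at 1, 7 and 14 dpt, with 95% intervals from the edgeR fit; filled points were called, open points were not, and dotted lines mark the fold threshold. OsYUC7 changes side between 1 dpt and the later times, from -1.39 to 1.28 and 1.76.

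OsYUC3 (LOC_Os01g53200, chromosome 1) and OsYUC6 (LOC_Os07g25540, chromosome 7) encode further YUCCA monooxygenases, and neither was called at any time. For OsYUC3, the mock libraries of 14 dpt had 8.14, 11.5 and 8.96 CPM and the 2,4-D libraries 3.76, 5.66 and 5.93 CPM. For OsYUC6, the same groups had 17.7, 7.36 and 8.42 CPM and 4.46, 6.25 and 5.24 CPM. At 14 dpt the 2,4-D libraries of both loci thus lay below all mock libraries. The log2 fold change was -0.89 for OsYUC3 (95% interval -1.62 to -0.17, adjusted p = 0.07734) and -1.06 for OsYUC6 (95% interval -1.89 to -0.24, adjusted p = 0.06593). For groups of this size a full separation cannot go below p = 0.1 by exact permutation. The share of all tested loci that separated in this way was not counted. At 14 dpt, 7811 of the 23289 tested loci had an unadjusted p under 0.05 in edgeR.

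The decrease of OsYUC6 at 14 dpt passed the thresholds with DESeq2 (adjusted p = 0.02957) and in edgeR without mock replicate 2 (adjusted p = 0.04321). At 1 dpt OsYUC6 stood at 8.54, 7.27 and 5.21 CPM in mock and 9.46, 10.2 and 18.1 CPM with 2,4-D. These groups did not overlap either, with the same limit for groups of this size. The difference was not called (log2 0.84, adjusted p = 0.1669). At 1 dpt, 6602 of the 23289 tested loci had an unadjusted p under 0.05 in edgeR. OsYUC3 at 1 dpt, with 5.21 to 8.16 CPM in mock and 7.28 to 10.05 CPM with 2,4-D, overlapped between treatments (log2 0.40, adjusted p = 0.4785). At 7 dpt OsYUC3 ran from 4.46 to 10.2 CPM in mock and from 4.98 to 10.1 CPM with 2,4-D, and OsYUC6 from 6.42 to 12.7 CPM and from 5.16 to 9.42 CPM. Both loci overlapped there (log2 -0.14 for OsYUC3, adjusted p = 0.8042, and -0.36 for OsYUC6, adjusted p = 0.5451).

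The other 5 loci were at or near the detection limit. A floor of 3 counts corresponds to 0.160 to 0.325 CPM, depending on the library. The second TAR locus, LOC_Os05g07720, had 7 counts over the 18 libraries, OsYUC1 (LOC_Os01g45760) 7 and OsYUC2 (LOC_Os05g45240) 9. OsYUC5 (LOC_Os12g32750) had 60 counts, of which 23 (1.45 CPM) came from replicate 3 of 2,4-D at 7 dpt, while no other library had more than 6. OsYUC8 (LOC_Os03g06654) had 36 counts, with 4, 6 and 2 counts in the 2,4-D libraries of 14 dpt against 1, 0 and 1 in mock. These 5 loci did not pass the filter on low counts. In the fit without that filter 0 of the 5 were called at any time by edgeR, and at this depth a difference was not detectable. Without adjustment, 0 of them passed 0.05 at 1 dpt, 0 at 7 dpt and 1 at 14 dpt, which was OsYUC8 (edgeR, adjusted p = 0.154).

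Replicate 3 of 2,4-D at 7 dpt stood apart from its group in several of these genes. It had the lowest OsYUC7 level, the highest LOC_Os01g07500 level, 23 of the OsYUC5 counts and 5 of the 9 OsYUC2 counts. The summed level of 4 loci taken as markers of green tissue was 140 CPM there, the highest of its group, and 222 CPM in mock replicate 3 of 7 dpt, the highest of all libraries. One of these 4 loci (LOC_Os12g17600) was at 0 in all libraries and another (LOC_Os12g19470) had at most 4 counts in any. At 14 dpt their sum was 4.86 to 11.9 CPM with 2,4-D against 75.2 to 88.8 CPM in mock, so that it also moved with treatment. Without 2,4-D replicate 3, the log2 fold change at 7 dpt was 1.60 for OsYUC7 (adjusted p = 0.00404), -3.10 for LOC_Os01g07500 (adjusted p = 0.0005973) and -3.69 for OsYUC4 (adjusted p = 0.0003102). With both libraries numbered 3 of 7 dpt left out, an alternative chosen after seeing the data, LOC_Os01g07500 had a log2 fold change of -3.41. With all libraries it was -2.21. The part of green tissue in these values was not tested.

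Whether the response to 2,4-D differed between times was tested as a difference of 2 log2 fold changes in the fit of all libraries. For OsYUC7 the response was 3.15 higher on the log2 scale at 14 than at 1 dpt (95% interval 2.02 to 4.27, adjusted p = 0.01777), which made it the 1 called locus among the 5, where 1.2% of all tested loci were called. Leaving out mock replicate 2 of 1 dpt (adjusted p = 0.0635), mock replicate 1 of 14 dpt (adjusted p = 0.0515) or 2,4-D replicate 1 of 14 dpt (adjusted p = 0.0584) ended this call. A fit with a term for the replicate number ended it too. The difference between 7 and 1 dpt was 2.67 for OsYUC7 (adjusted p = 0.07106), and 0 of the 5 loci were called, where 0.0773% of all tested loci were. It passed without mock replicate 3 of 1 dpt (adjusted p = 0.0416) and without 2,4-D replicate 3 of 7 dpt (adjusted p = 0.0203). DESeq2 called it as well, as did the fit without both libraries numbered 3 of 7 dpt, an alternative chosen after seeing the data. Each time had its own mock libraries of the same batch. Time and batch cannot be told apart at 1 dpt against the later times, in levels or in a difference of responses. Treated roots were selected for NLS at 7 and 14 dpt but not at 1 dpt, and this selection cannot be told apart there either.

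OsYUC4 had response differences of -2.93 between 7 and 1 dpt (95% interval -4.02 to -1.83, adjusted p = 0.05392) and -2.07 between 14 and 1 dpt (95% interval -3.14 to -0.998, adjusted p = 0.05901), neither past the threshold. Both lay near it and were called in DESeq2. The first also passed with RLE factors (adjusted p = 0.0436), with no filter on low counts (adjusted p = 0.0388) and without mock replicate 3 of 1 dpt (adjusted p = 0.0453), and the second passed without 2,4-D replicate 3 of 14 dpt (adjusted p = 0.0432). For LOC_Os01g07500 the differences were -0.62 (95% interval -2.06 to 0.82) and -0.57 (95% interval -2.02 to 0.87). These intervals were wide enough to hold a change of about the size of its response at 1 dpt. For 14 against 1 dpt, OsYUC6 had -1.90 (95% interval -3.07 to -0.74) and OsYUC3 -1.29 (95% interval -2.31 to -0.27). Neither was called in edgeR (adjusted p = 0.0873 and 0.1714), and DESeq2 called OsYUC6 (adjusted p = 0.0167). For 7 against 1 dpt they had -1.20 and -0.54, not called. Between 14 and 7 dpt, 0 of the 5 loci were called, and 0% of all tested loci, although 1435 loci had an unadjusted p under 0.05 in edgeR and DESeq2 called 7 loci. There, the difference for OsYUC7 was 0.47 (95% interval -0.62 to 1.57).

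Among the 8 YUCCA loci, OsYUC7 gave most of the counts in mock roots at each time. Its share of the counts of the 8 YUCCA loci was 74.9% ± 4.21 (SD, n = 3) at 1 dpt, 77.1% ± 1.97 at 7 dpt and 69.6% ± 9.35 at 14 dpt in mock. With 2,4-D it was 46.8% ± 10.7 at 1 dpt, 91.5% ± 6.41 at 7 dpt and 94.9% ± 1.57 at 14 dpt. The lowest mock library at 1 dpt, at 71.3%, was above the highest 2,4-D library, at 58.3%, and the order was the opposite at 7 and 14 dpt, again without overlap. At 1 dpt OsYUC6 held 27.0% and OsYUC3 19.6% of the counts with 2,4-D, against 9.09% and 8.66% in mock. Their mean levels went from 7.01 to 12.6 CPM and from 6.62 to 8.75 CPM, neither called. OsYUC7 fell from 58.2 to 22.2 CPM, and this fall alone raises the shares of the other loci. OsYUC4 held 8.02% in mock and 0.315% with 2,4-D at 7 dpt, and 7.48% and 0.391% at 14 dpt. These are shares of counts, not per transcript length, so that they do not rank the loci by molecules. Other YUCCA-type loci of rice were not counted, so these are not shares of the whole family.

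**Figure D3:**
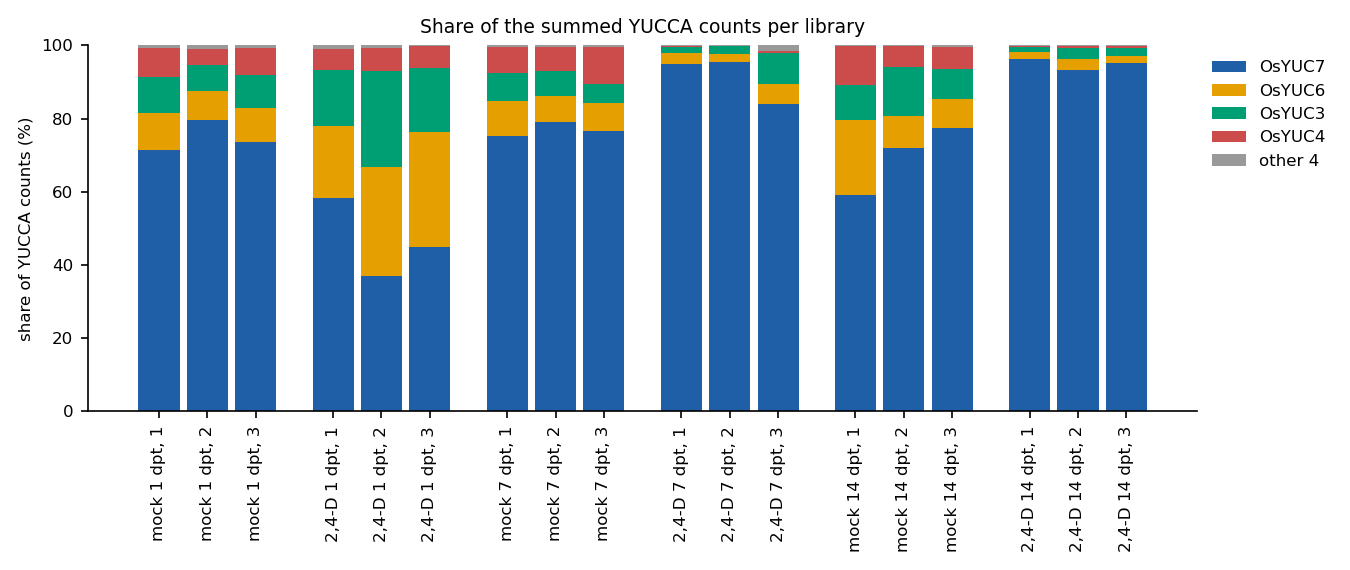
Share of the summed counts of the 8 YUCCA loci held by OsYUC7, OsYUC6, OsYUC3, OsYUC4 and the other 4 loci together, in percent, 1 bar per library. The OsYUC7 part shrinks with 2,4-D at 1 dpt, to a mean of 46.8%, and grows to 91.5% and 94.9% at 7 and 14 dpt.

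The sum over the 8 YUCCA loci followed OsYUC7. It was 77.4 ± 17.8 CPM in mock and 46.6 ± 11.7 CPM with 2,4-D at 1 dpt, 111 ± 24.5 and 223 ± 95.3 CPM at 7 dpt, and 93.3 ± 13.0 and 233 ± 36.7 CPM at 14 dpt. Without OsYUC7, the sum of the other YUCCA loci was 19.2 CPM in mock and 24.4 CPM with 2,4-D at 1 dpt, 25.5 and 15.2 CPM at 7 dpt, and 27.8 and 11.7 CPM at 14 dpt. The sum over the 8 loci at 14 dpt was thus higher with 2,4-D, while the sum without OsYUC7 was lower.

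The leading transcripts of both steps were compared within each library, as OsYUC7 counts per count of LOC_Os01g07500. This ratio does not depend on library scaling and was chosen after seeing the data. It is not per transcript length and does not measure enzymes or IAA. It was 0.944, 1.15 and 1.07 in mock and 1.96, 0.814 and 1.03 with 2,4-D at 1 dpt, when both transcripts were lower. At 7 dpt it was 1.63, 1.73 and 2.82 in mock and 47.8, 50.8 and 5.36 with 2,4-D. At 14 dpt it was 1.54, 2.74 and 1.98 in mock and 26.3, 24.4 and 44.9 with 2,4-D. The groups overlapped at 1 dpt, and at 7 and 14 dpt all 2,4-D libraries were above all mock libraries, with replicate 3 of 7 dpt the closest to mock. At those times OsYUC7 was called higher and LOC_Os01g07500 lower, so the separation of the ratio restates these calls.

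**Figure D4:**
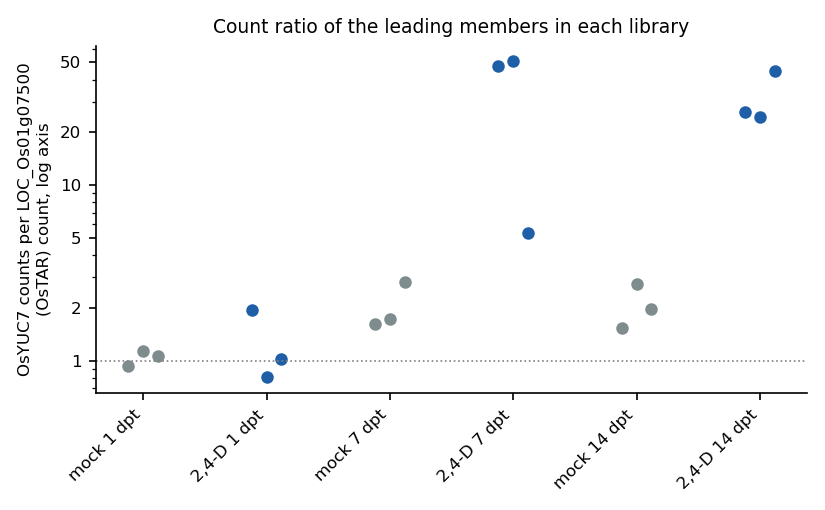
OsYUC7 counts per count of the aminotransferase locus LOC_Os01g07500 in each library, on a log axis (grey, mock; blue, 2,4-D; dotted line, equal counts). Values lie between 0.814 and 1.96 at 1 dpt and reach 24.4 to 44.9 in the 2,4-D libraries of 14 dpt.

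Genes around the route were taken from names in the study's supplement, which drew them from these libraries at 7 dpt. Neither their direction nor the number called at 7 dpt is therefore independent evidence. The counts at 1 and 14 dpt are likewise those of loci picked for a response to 2,4-D in this experiment. Of 2 loci of tryptophan supply, 1 was called higher at 1 dpt, 0 at 7 dpt and 1 at 14 dpt, and none lower, where 4.07%, 6.27% and 5.55% of all tested loci were called higher at the 3 times. Tryptophan synthase beta-subunit 2 (LOC_Os08g04180), which joins indole and serine into tryptophan, rose at 1 dpt (log2 1.23, adjusted p = 0.03432), and its log2 value at 14 dpt was 0.05 (adjusted p = 0.935). Anthranilate synthase alpha subunit 1 (LOC_Os03g61120), at the entry of the tryptophan pathway, rose at 14 dpt (log2 1.10, adjusted p = 0.002923), and at 7 dpt its log2 value of 1.00 fell just under the fold threshold (adjusted p = 0.005327). At 1 dpt it had a log2 value of 0.04 (adjusted p = 0.917).

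On the side of IAA removal, 8 loci that conjugate or modify IAA were tested. At 1 dpt 5 were called higher and 1 lower, at 7 dpt 6 higher and 2 lower, and at 14 dpt 6 higher and 1 lower. Of all tested loci, 4.07% were called higher and 7.21% lower at 1 dpt, 6.27% and 8.07% at 7 dpt, and 5.55% and 8.54% at 14 dpt. Since the 8 loci were drawn from genes the study listed as differing at 7 dpt, the number called then was largely set by this choice. The numbers at 1 and 14 dpt are no independent evidence either, as the same choice favors loci that respond to 2,4-D. The median log2 values of the 8 loci were 1.80, 2.81 and 2.20 at the 3 times. GH3 enzymes join IAA to amino acids, and all 5 GH3 loci of the list rose at each time, with median log2 values of 2.65, 3.35 and 2.31. LOC_Os01g55940 went from 64.3 to 79.0 CPM in mock to 1804 to 2649 CPM with 2,4-D at 1 dpt (log2 5.01), and LOC_Os05g42150 had log2 values of 5.57, 4.98 and 5.80 at the 3 times.

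The IAA carboxylmethyltransferase loci, which form the methyl ester of IAA, moved in opposite directions. LOC_Os04g56950 was not called at 1 dpt (log2 0.88, adjusted p = 0.1255) and rose at 7 and 14 dpt (log2 3.52 and 3.65), while LOC_Os04g57090 fell at all 3 times (log2 -2.93, -2.55 and -2.06). LOC_Os04g56950, like OsYUC7, had a response that was higher at 14 than at 1 dpt, by 2.77 on the log2 scale (adjusted p = 0.02442). An IAA glucosyltransferase (LOC_Os11g04860) fell at 7 dpt (log2 -2.24), with log2 values of 0.54 at 1 dpt and -1.26 at 14 dpt that were not called. A further flavin monooxygenase (LOC_Os09g37620), a member of the wider enzyme class of the YUCCA proteins, fell at 7 dpt (log2 -1.32) and was not called at 1 and 14 dpt (log2 -0.21 and -0.99).

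**Figure D5:**
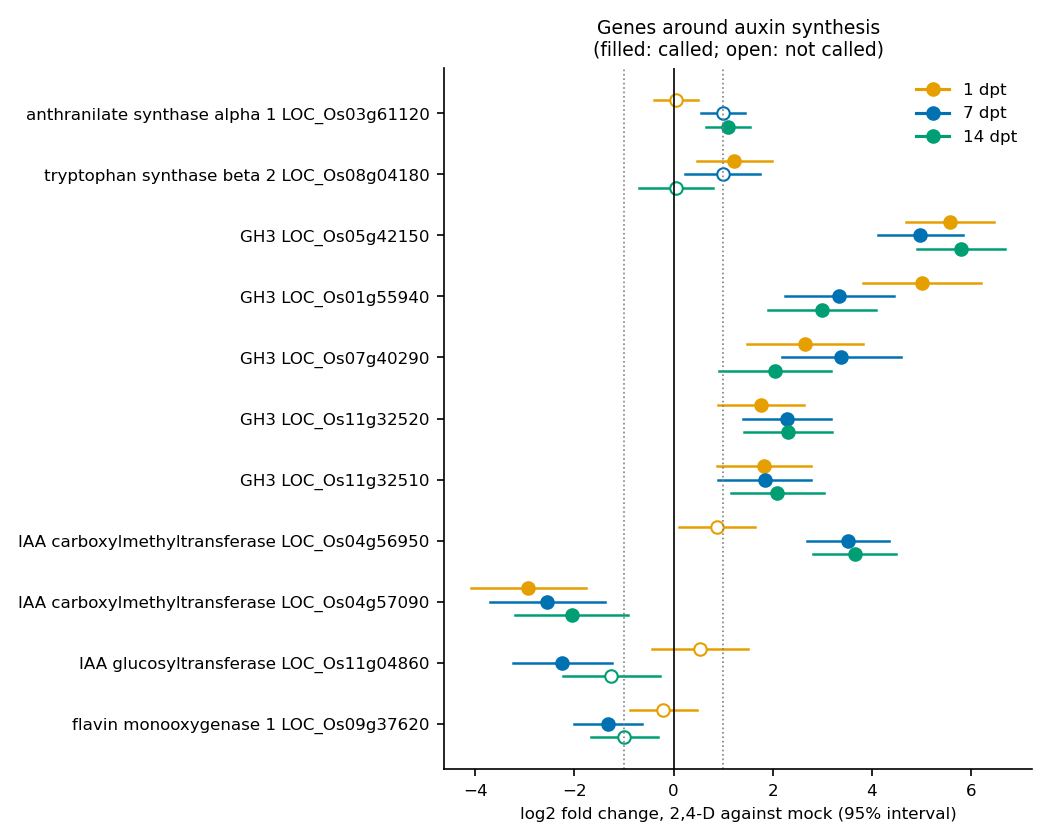
Log2 fold change of 2,4-D against mock, with 95% intervals, for 2 loci of tryptophan supply, 8 loci of IAA conjugation and modification and 1 further flavin monooxygenase at 1, 7 and 14 dpt; filled points were called and dotted lines mark the fold threshold. The 5 GH3 loci lie above 1 at each time, and the carboxylmethyltransferase loci lie on opposite sides of 0.

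The loci whose group means most resembled those of OsYUC7 were found by the root mean square difference of mean-centred log2 CPM over the 6 groups, with a pseudocount of 0.5. LOC_Os03g14300 (0.236), LOC_Os07g05024 (0.249) and LOC_Os06g43600 (0.267) came closest, and the sources used here name none of them. LOC_Os03g14300 had group means of 30.2 and 12.6 CPM in mock and 2,4-D at 1 dpt, 67.5 and 148 CPM at 7 dpt, and 40.5 and 227 CPM at 14 dpt. For LOC_Os01g07500 the closest were LOC_Os03g24510 (0.0482), the peroxidase superfamily locus LOC_Os05g42000 (0.0906) and LOC_Os06g33200 (0.112). With 2,4-D, LOC_Os03g24510 had group means of only 0.189 CPM at 7 dpt and 0.0613 CPM at 14 dpt, against 3.18 and 2.17 CPM in mock. These lie at or under the floor of 3 counts, where the pseudocount largely sets the value, so its closeness does not mean a like fold change. LOC_Os06g33200 with 2,4-D at 14 dpt (0.236 CPM) and LOC_Os06g43600 with 2,4-D at 1 dpt (0.262 CPM) were near that floor too. The peroxidase locus had 16.0 and 4.26 CPM at 1 dpt, 12.6 and 2.13 CPM at 7 dpt, and 9.51 and 1.54 CPM at 14 dpt, lower with 2,4-D at each time as the aminotransferase was.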

How the data were processed

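The authors sequenced libraries from a stranded mRNA kit, used RSeQC for read quality and Rsubread for alignment to the MSU 7 rice genome, and counted reads with featureCounts. The authors deposited 1 table of raw counts, with a row for each transcript and no normalization, and all columns were matched to samples. The strand setting and the treatment of reads that match several loci, which could blur members of a family, were not given in the sources used here. Counts were summed over the isoform rows of a locus, and 707 rows without a LOC_Os name were kept.

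Loci that reached 1 CPM in 2 or more libraries, of 18, were tested in 1 fit of 6 group means with edgeR 4.0.16 (robust quasi-likelihood, TMM factors of 0.903 to 1.10, Benjamini-Hochberg over 23289 loci) in R 4.3.3. Standard errors and 95% intervals follow from the quasi-likelihood F statistic. Exact permutation of 3 against 3 libraries cannot go below p = 0.1, so single values were not tested that way. Replicates of a group differed beyond sampling noise (chi-square per degree of freedom 8.47 to 109), and each library was counted once. The fit was tested on simulated data.

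The members and lists were chosen with earlier results of these data known. All 10 members, the listed pathway loci and the 3 loci nearest in pattern to OsYUC7 and to LOC_Os01g07500 are named. Alternatives were other filters, RLE factors, library sizes alone, DESeq2 1.42.0, limma-voom (limma 3.58.1), fits of fewer libraries, unsummed rows, no fold threshold, a replicate block and leaving out each library. No sequence or coordinate is given, since the reference used here holds none for these identifiers.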

Additional observations from a re-analysis of the deposited data

Results flagged for a closer look

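The response of OsYUC7 to 2,4-D differed between times by a test of the difference itself, with a log2 difference of 3.15 between 14 and 1 dpt (edgeR, adjusted p = 0.01777). This call was lost without mock replicate 2 of 1 dpt (adjusted p = 0.0635), mock replicate 1 of 14 dpt (adjusted p = 0.0515) or 2,4-D replicate 1 of 14 dpt (adjusted p = 0.0584), and also with a replicate block. Its transcript was lower in 3 of 3 2,4-D libraries than in any mock library at 1 dpt and higher in 3 of 3 at 14 dpt. The share of all tested loci that separated in this way was not counted. The 1 dpt libraries were of another sequencing batch than those of 14 dpt, and both times had mock libraries of their own batch.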

How the results depend on the processing

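No value changed its direction across a call, and of the values for single loci under the alternatives 557 kept their side of the threshold, 24 lost a call and 13 gained one. Of the 5 tested members, 2 were called at 1 dpt, and this became 1 with no filter, 1 with library sizes alone and 0 to 2 when single libraries were left out. At 7 dpt 3 were called, and 1 with the 6 libraries of that time alone. For the difference between 7 and 1 dpt, 0 became 1 with no filter, 1 with RLE factors, 2 with DESeq2, 0 to 2 without single libraries and 1 without both libraries numbered 3 of 7 dpt, an alternative chosen after seeing the data. For 14 against 1 dpt, 1 became 3 with DESeq2 and 0 to 2 without single libraries. The cause of these changes was not tested.

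Same-numbered deviations correlated at -0.516 to 0.348 and differently numbered ones at -0.454 to 0.497, which gave no clear pairing by replicate number. Deviations from a mean of 3 libraries are tied to each other, so these values cannot exclude pairing. With a replicate block the members called were 0 at 1 dpt, 1 at 7 dpt and 0 for 14 against 1 dpt. The calls not made there were LOC_Os01g07500 at 1, 7 and 14 dpt (adjusted p = 0.155, 0.0547 and 0.0646) and OsYUC7 at 1 dpt, at 7 dpt and for 14 against 1 dpt (adjusted p = 0.0519, 0.0604 and 0.0849). With this block the loci called over the whole table fell from 2627 to 1250, from 3339 to 2224, from 3281 to 1954, from 18 to 0 and from 279 to 1. Over the whole table, a filter of 10 CPM gave 2184 loci at 7 dpt, 2185 at 14 dpt and 10 for 7 against 1 dpt, fewer loci being tested, and 6 libraries gave 1756 at 14 dpt. For the differences 7 against 1, 14 against 1 and 14 against 7 dpt, DESeq2 called 559, 1506 and 7 loci, and limma-voom called 10 and 146 for the first and second. Only 12 libraries gave 0 and 119 for these, and no filter gave 42 for the first. Leaving out single libraries lowered the calls to 1156, 2091 and 2058 at the 3 times, and gave 0 to 106, 29 to 929 and 0 to 3 for the differences. Library sizes alone moved the median log2 value of all loci at 7 dpt to 0.10, and OsYUC7 was then 1.35. OsYUC4 gave no value with the 10 CPM filter, and loci under 3 counts in a library could not be compared at this depth.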
